A study of Mus musculus with 4 samples.

Results

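The SR proteins, the heterogeneous nuclear ribonucleoproteins (hnRNPs) and core factors of 3' splice site recognition were examined in mouse retinal ganglion cells, which send the eye's output to the brain through the optic nerve. Members were the protein-coding genes whose symbols name an Srsf or Hnrnp gene, a numbered Sf3a or Sf3b subunit, U2af1, U2af2, Tra2a or Tra2b, with 2 pseudogenes left out. This gave 44 genes of the 78334 in the counts table, namely 11 SR proteins, 2 Tra2 genes, 20 hnRNPs, 3 SF3A subunits, 6 SF3B subunits and 2 U2AF subunits. The rule used names and no measured value, and all 44 passed the filter on low counts.

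Both groups came from wild-type (WT) mice of both sexes that had an optic nerve crush. An adeno-associated virus of serotype 2 had been injected into the vitreous at 8 weeks of age, 2 weeks before the crush, and cells were taken 2 weeks after it. In both groups the virus expressed mCherry. It also expressed a scramble shRNA in the control group and an anti-miR132-3p shRNA, directed against the microRNA miR-132-3p, in the other. Retinas were pooled, 10 per condition, and about 5000 cells per library were obtained by Thy1 panning followed by an mCherry sort. About 40% of ganglion cells were transduced, per the labels, so the sort selects those that took up the virus.

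Polyadenylated RNA was counted in 2 libraries per group, with totals of 1845090 and 1846637 counts for the scramble shRNA and 1732416 and 1731199 counts for the anti-miR132-3p shRNA. Within a group, the libraries differed by no more than sampling noise, with a chi-square per degree of freedom of 1.02 (p = 0.095) and 1.00 (p = 0.49), against 4.01 to 4.03 across groups. For that reason a pair counts once, each group has n = 1, no SD is given and no difference has a replicate check. Nothing in the labels says that a pair came from separate animals. Levels are CPM (counts scaled to a common library size), with TMM scaling, and fold intervals are exact 95% Clopper-Pearson intervals that cover counting error only. Calls by edgeR's quasi-likelihood test (Benjamini-Hochberg adjusted p under 0.05 over 11427 genes) therefore compare sequenced libraries and not conditions. They use the spread within the pairs, and with any 1 library left out edgeR called 0 members, with 4 to 5 higher and 6 to 8 lower at an unadjusted p under 0.05. The scramble group was read from the columns that name mCherry, since the remaining ones name miR132, and every direction rests on that.

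Of the ganglion cell markers, 6 of 6 were detected, and they summed to 1495 to 1533 CPM in the scramble and 1581 to 1614 CPM in the anti-miR132-3p libraries. Thy1, the panning antigen, was called higher, at 223 against 329 CPM, and Pou4f1 lower, at 39.9 against 27.2 CPM. Rbpms and Slc17a6 were lower without a call, and Nefl and Sncg were nearly level. Summed levels for other cell types also differed between the groups. Amacrine markers summed to 514 to 515 and 712 to 713 CPM (Gad1, Tfap2b and Slc32a1 at 0), and Müller glia markers (6 of 6 detected) to 1183 to 1195 and 1723 to 1749 CPM. In the Müller list, Dkk3 (1081 against 1596 CPM) and Apoe (18.9 against 62.4 CPM) were higher. Rlbp1 and Glul were lower without a call, Glul at 70.2 against 65.5 CPM. Slc1a3 (11 against 10 counts) and Aqp4 (16 against 6 counts) were lower but below the low-count filter, so they were not tested. Rod markers were at 72.6 to 81.6 and 13.2 to 16.0 CPM, with Gnat1 at 0. Microglia and other leukocyte markers, with 8 of 8 detected, were at 0.546 to 1.64 and 16.6 to 18.9 CPM. Their part in the results below was not tested, and in bulk RNA fewer cells of a type and less RNA per cell cannot be told apart.

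Splicing removes introns from transcripts in the spliceosome. SR proteins carry arginine and serine repeats and commonly bind exons, where they recruit the splicing machinery. The hnRNPs coat nascent RNA and often act against exon inclusion. U2AF reads the pyrimidine tract and the end of the intron, and the SF3A and SF3B complexes belong to the U2 snRNP that binds the branch site. Neurons use these factors to set which isoforms of channels, synaptic proteins and cytoskeletal proteins are made. Many SR and hnRNP genes also limit their own messenger RNA through exons that trigger decay, and a count per gene does not separate such isoforms.

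The sequences that define the treatment are shown first, because 11 of the 44 members hold a match to the microRNA seed. The mature miR-132-3p, from RefSeq (GRCm38.p6), is given with its seed (bases 2 to 8) in capitals. The insert of the anti-miR132-3p vector is its reverse complement, with the seed match in capitals, and the scramble insert holds no seed match.
miR-132-3p: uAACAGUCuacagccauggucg
anti-miR132-3p insert: cgaccatggctgtaGACTGTTa
scramble insert: tcgagggcgacttaaccttagg

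Annotated 3' UTRs of 1 transcript per gene (GENCODE M21) were searched on the sense strand for the 8mer GACTGTTA, the 7mer-m8 GACTGTT with no A after it, and the 7mer-A1 ACTGTTA with no G before it. An 8mer or 7mer-m8 was found in 5 of 44 members (11.4%), against 12.9% of 10321 tested genes with a 3' UTR, so the members did not hold more of them. Any of the 3 kinds was found in 25% of members and 21.0% of tested genes. The 5 members with an 8mer or 7mer-m8 are shown with the match in capitals and the flanking bases in lower case, as the sites that a microRNA could pair with. A match is a description and not a shown site.
Hnrnpc (8mer): cacgtgagtggGACTGTTAcaacacgaatg
Sf3b1 (8mer): cttgtgcttctGACTGTTAacaaggaagac
Hnrnpd (7mer-m8): aaattccactgGACTGTTtccattgtaga
Hnrnpm (7mer-m8): gggttccatttGACTGTTtgcattgagat
Hnrnpu (7mer-m8): cacaagaagtcGACTGTTttctttagtag

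The question was which splicing transcripts differ in injured ganglion cells when miR-132-3p is targeted. Most of the splicing genes differed little. Together the 44 members summed to 8942 CPM in the scramble and 8676 CPM in the anti-miR132-3p libraries, 1.03-fold lower (1.01 to 1.05). The sum over all tested genes was also lower, 1.02-fold (1.017 to 1.020), a value inside the interval of the members. The U2 snRNP subunit genes Sf3a2 and Sf3b3 and the hnRNP gene Hnrnpa2b1 were higher, and Hnrnpll, Srsf2 and several abundant members, among them Hnrnpk and Sf3b1, were lower. With terms for GC content and length in the fit, described below, 6 of the 8 lower calls ended, those of Srsf2 and Hnrnpk among them.

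By edgeR's quasi-likelihood test, 3 of 44 members were called higher (6.82%, against 13.5% of all tested genes) and 8 lower (18.2%, against 10.3%). The same counts were 7 higher and 2 lower with the GC and length terms (background 10.9% and 7.42%), and 3 and 2 by DESeq2. No share over all tested genes is given for DESeq2, limma-voom or an unadjusted p, so counts under these have no background. The 2 lower calls were Hnrnpll and Sf3b1 with the terms, and Hnrnpk and Sf3b1 by DESeq2. By size alone, 3 members were higher by 25% or more (6.82%, against 24.0%) and 6 lower by 20% or more (13.6%, against 16.3%). The members were more abundant than most genes, with a median of 91.0 CPM against 33.3 CPM over all tested genes. When their exact interval also had to leave out 1, there were 3 higher (background 16.7%) and 3 lower (background 10.2%). Without anti-miR132-3p replicate 2, 7 members were higher by 25% or more. The 2 libraries of one group lay above both of the other for 12 members higher (27.3%, against 31.3%) and 15 lower (34.1%, against 30.6%), shares close to the background. The median log2 fold change was -0.04 over the members and -0.0030 over all tested genes.

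**Figure D1:**
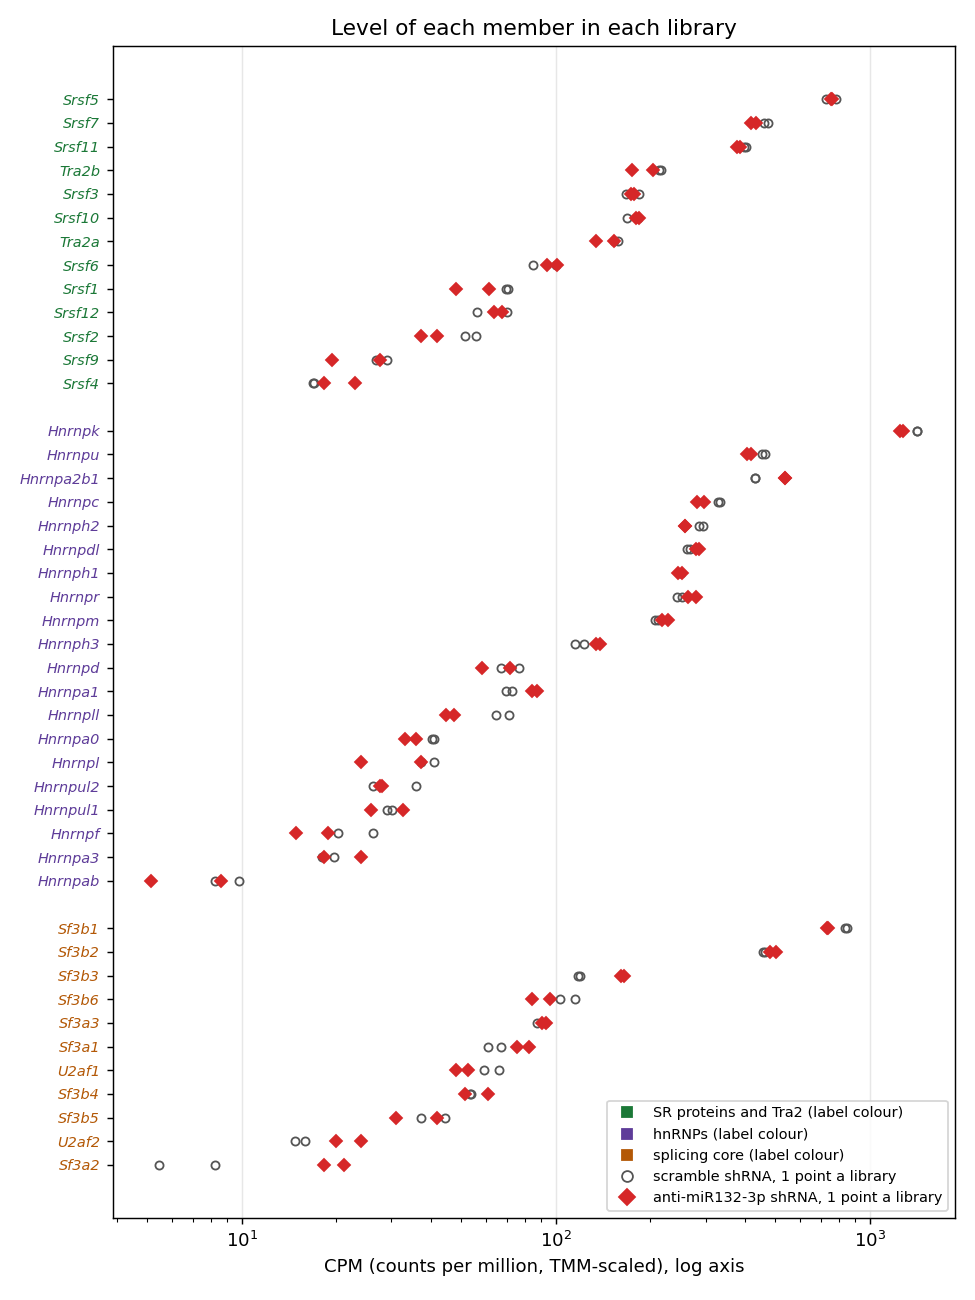
Level of each of the 44 members in each library, in CPM on a log axis, with open circles for the 2 scramble libraries and filled diamonds for the 2 anti-miR132-3p libraries. Libraries of a group sit close together for abundant genes such as Hnrnpk and spread apart for low ones such as Hnrnpab, and Sf3a2 shows the widest gap between groups.

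Among SR proteins, Srsf2 and Srsf7 were lower and most others were near their control level. With the GC and length terms both calls ended (adjusted p = 0.20 for Srsf2 by edgeR), Srsf7 turned to a log2 fold change of 0.077, and Srsf5 was called higher at 0.38. The 13 SR and Tra2 genes summed to 2650 and 2681 CPM in the scramble libraries and to 2562 and 2548 CPM in the anti-miR132-3p libraries. This was 1.04-fold lower (1.01 to 1.07), an interval that holds the 1.02-fold of all tested genes summed. The test called 2 lower (15.4%, against 10.3% of all tested genes) and 0 higher (against 13.5%). At an unadjusted p under 0.05 edgeR had 4 lower and 0 higher, DESeq2 called 0 and 0, and limma-voom 2 and 0. The median log2 fold change was -0.07. It was -0.02 without anti-miR132-3p replicate 1 and -0.10 without scramble replicate 2.

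Srsf2, which binds exonic enhancers and has a role in transcription elongation, had 102 and 94 counts in the scramble libraries and 73 and 65 in the anti-miR132-3p libraries. Its libraries did not overlap between groups, and it was 1.36-fold lower (1.09 to 1.699). Its exons overlap Mfsd11 and Mettl23 on the opposite strand. Mfsd11 had 155 and 144 counts against 149 and 165, and reads of the genes cannot be told apart without strand. Srsf1, the first SR protein described as a splicing factor, was at 70.6 and 69.3 CPM against 48.0 and 61.3 CPM. That is 1.28-fold lower (1.06 to 1.55), but edgeR did not call it (adjusted p = 0.069). Its log2 fold change ran from -0.19 without anti-miR132-3p replicate 1 to -0.54 without anti-miR132-3p replicate 2, so the size depends on which library is used.

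Srsf7, a zinc knuckle SR protein, was at 460 and 475 CPM against 418 and 434 CPM. This was a small difference, 1.098-fold lower (1.02 to 1.18), that edgeR called. Per kilobase of transcript, Srsf5 had the highest level of the class, 492 CPM per kb with the scramble shRNA. Srsf5, which like Srsf4 and Srsf6 has a pair of RNA recognition motifs, was at 725 and 778 CPM against 756 and 753 CPM. The scramble libraries lay on either side of the others, and the fold was 1.00 (0.951 to 1.06). It alone held 28.2% of the CPM of the class in the scramble and 29.5% in the anti-miR132-3p libraries.

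Srsf3, the smallest SR protein and an adaptor for mRNA export, was at 184 and 168 CPM against 178 and 174 CPM, a fold of 1.00 (0.894 to 1.12). Tra2b, an SR-like activator of exons, was at 214 and 216 CPM against 204 and 175 CPM, 1.14-fold lower (1.02 to 1.26), and was not called. Its paralog Tra2a was 1.08-fold lower (0.957 to 1.22). Over the 11 SR and Tra2 genes that were not called, log2 fold changes ran from -0.36 to 0.28, and the interval held 1 for 9 of them.

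Among the hnRNPs, Hnrnpa2b1 was higher and 5 genes were lower, of which Hnrnpll changed most. These are 5% and 25% of the class, against 13.5% and 10.3% of all tested genes. With the GC and length terms 4 were called higher (background 10.9%) and 1 lower (background 7.42%), and of the 5 lower calls only that of Hnrnpll held. The 20 hnRNP genes summed to 4406 and 4429 CPM in the scramble libraries and 4316 and 4256 CPM in the anti-miR132-3p libraries. This was 1.03-fold lower (1.01 to 1.05), an interval that holds the 1.02-fold of all tested genes summed. The median log2 fold change was -0.15, with 7 genes above 0 and 13 below. It was -0.03 without scramble replicate 2 and -0.05 without anti-miR132-3p replicate 1.

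Hnrnpa2b1, an hnRNP of the A/B family that binds RNAs carried into neuronal processes, was at 430.2 and 429.6 CPM with the scramble shRNA. In the anti-miR132-3p libraries it was at 537.1 and 537.2 CPM, 1.249-fold higher (1.17 to 1.34). Both libraries of a group were nearly equal and the groups did not overlap. The related Hnrnpa1, a repressor of exon inclusion, was at 69.5 and 72.6 CPM against 86.9 and 84.2 CPM. It was 1.204-fold higher (1.02 to 1.43) and not called, and its counts are uncertain because it has near-identical processed pseudogenes. The other A/B members were not called either, with Hnrnpa3 1.12-fold higher (0.798 to 1.58) and Hnrnpa0 1.18-fold lower (0.919 to 1.51).

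Hnrnpll, a regulator of CD45 exons in lymphocytes, was at 71.2 and 64.4 CPM in the scramble and 44.6 and 47.5 CPM in the anti-miR132-3p libraries. It was 1.47-fold lower (1.202 to 1.81), and the groups were well apart. DESeq2's Wald test did not call it (adjusted p = 0.16). Its paralog Hnrnpl, which binds CA repeats, was at 41.1 and 37.1 CPM against 37.2 and 24.1 CPM. The libraries of Hnrnpl overlapped, and it was 1.28-fold lower (0.987 to 1.66) without a call.

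Hnrnpk, a KH-domain protein that binds C-rich RNA and DNA, was the most abundant member per kilobase, at 529 CPM per kb with the scramble shRNA. It was at 1415.5 and 1415.3 CPM against 1279 and 1248 CPM, 1.12-fold lower (1.08 to 1.17), and held 32.0% and 29.5% of the hnRNP sum. The groups rest on 5179 and 4415 counts of this gene. Hnrnpc, which binds U tracts and restrains the inclusion of Alu-like and cryptic exons, was at 329 and 332 CPM against 296 and 281 CPM, 1.15-fold lower (1.05 to 1.246). Hnrnpu, a scaffold-attachment factor of chromatin and RNA, was 1.11-fold lower (1.04 to 1.197), from 455 and 465 to 419 and 407 CPM.

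The H/F family, which binds G-rich tracts, was mixed. Hnrnph2 was called lower, at 286 and 294 CPM against 259 and 257 CPM, 1.12-fold lower (1.03 to 1.23). Its close paralog Hnrnph1 was at 250.1 and 249.4 CPM against 244 and 252 CPM, a fold of 1.01 lower (0.916 to 1.11). Hnrnph3 was 1.14-fold higher (1.00 to 1.305) and Hnrnpf 1.38-fold lower (0.976 to 1.95), neither called. Of the D-like proteins, which bind AU-rich RNA, Hnrnpdl was 1.07-fold higher (0.978 to 1.17), Hnrnpd 1.102-fold lower (0.919 to 1.32) and Hnrnpab, with 33 counts against 24, 1.31-fold lower (0.753 to 2.32). Hnrnpm, Hnrnpr, Hnrnpul1 and Hnrnpul2 were not called, with folds from 1.101 higher to 1.12 lower.

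**Figure D2:**
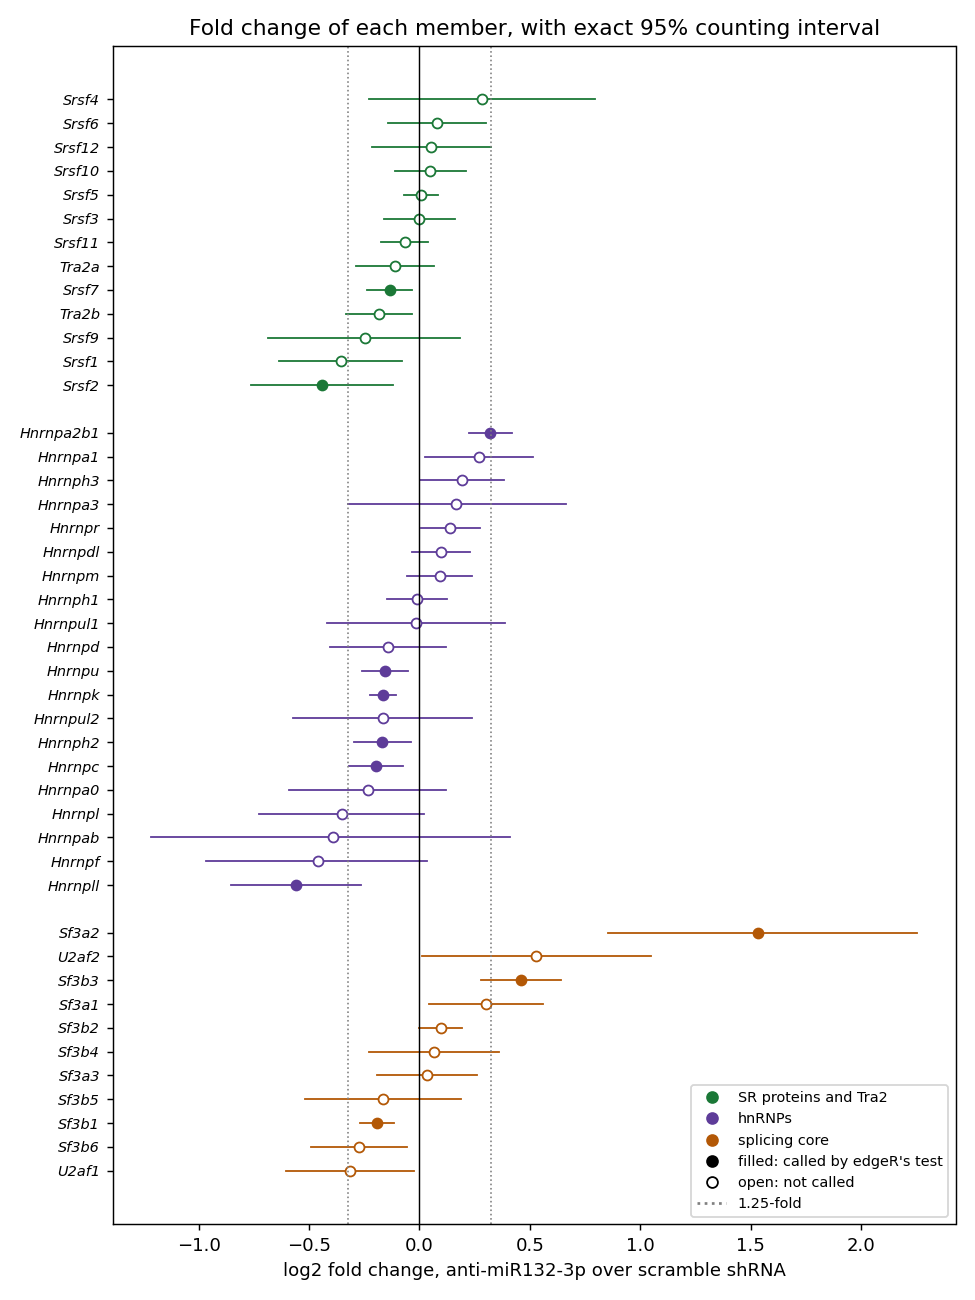
Log2 fold change of each member, anti-miR132-3p over scramble shRNA, with its exact 95% counting interval, grouped by class. Filled points were called by edgeR and dotted lines mark 25% higher and 20% lower, and Sf3a2 at 1.53 stands right of all other members while most points lie between the dotted lines.

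Of the core factors, which recognise the 3' splice site, Sf3a2 and Sf3b3 were called higher and Sf3b1 lower. These are 18.2% and 9.09% of the class, against 13.5% and 10.3% of all tested genes. The 11 genes summed to 1871 and 1848 CPM in the scramble libraries and 1818 and 1853 CPM in the anti-miR132-3p libraries, a fold of 1.01 lower (0.979 to 1.05). The median log2 fold change was 0.07, and 0.13 without anti-miR132-3p replicate 1. By size, 3 were higher by 25% or more (27.3%, close to the 24.0% of all tested genes), namely Sf3a2, Sf3b3 and U2af2.

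Sf3a2, the zinc finger subunit of SF3A, had 15 and 10 counts in the scramble libraries and 32 and 37 in the anti-miR132-3p libraries. This is 6.83 against 19.7 CPM, 2.89-fold higher (1.81 to 4.77). It was the lowest member in the scramble libraries and the one with the largest fold. It also had the highest GC content of the members, 62.2%. Plekhj1 overlaps it on the opposite strand and had 62 and 52 counts against 47 and 56. The other SF3A subunits moved less. Sf3a1, the subunit with SURP domains, was 1.23-fold higher (1.03 to 1.47), from 60.8 and 67.1 to 82.4 and 75.0 CPM, and was not called. Sf3a3 was at 89.6 against 91.9 CPM, 1.02-fold higher (0.876 to 1.199), an interval that lies wholly below that of Sf3a2.

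Sf3b3, a large scaffold subunit of SF3B, had 219 and 216 counts against 282 and 289, and was 1.37-fold higher (1.21 to 1.56). Its libraries were tightly paired and did not overlap between groups. Cog4, whose exons overlap it on the opposite strand, had 159 and 197 counts against 147 and 134. Sf3b1, the subunit that clamps the branch site, was at 843 and 833 CPM against 732 and 736 CPM, 1.14-fold lower (1.08 to 1.204). It held 45.1% of the class in the scramble and 40.0% in the anti-miR132-3p libraries. Per kilobase, Sf3b2 was the highest of the class with the scramble shRNA, at 143 CPM per kb beside 135 for Sf3b1. Sf3b2, a subunit that contacts RNA near the branch site, was at 464 and 457 CPM against 481 and 504 CPM, 1.07-fold higher (0.999 to 1.14).

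Sf3b6, which touches the branch adenosine, was 1.21-fold lower (1.04 to 1.41) without a call. Sf3b4 was 1.05-fold higher (0.855 to 1.28) and Sf3b5 1.12-fold lower (0.878 to 1.43). The U2AF subunits went opposite ways by size. U2af2, the large subunit that binds the pyrimidine tract, had 29 and 27 counts against 42 and 35, 1.44-fold higher (1.01 to 2.07). U2af1, the small subunit that reads the AG at the intron end, had 108 and 121 against 84 and 92, 1.24-fold lower (1.02 to 1.52). Neither was called by edgeR (adjusted p = 0.12 and 0.11).

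Of the 5 members with an 8mer or 7mer-m8, whose sequences are shown above, 1 lay above a log2 fold change of 0 and 4 below, and 3 were called lower (background 10.3%). With the GC and length terms the calls of Hnrnpc and Hnrnpu ended and that of Sf3b1 held. Hnrnpc went from a log2 fold change of -0.20 to -0.018. Hnrnpu moved little, from -0.16 to -0.14 (adjusted p = 0.056 by edgeR), as did Sf3b1, from -0.19 to -0.16. Hnrnpc and Sf3b1, which carry the 8mer, were both lower. Hnrnpu was lower, Hnrnpd was 1.102-fold lower without a call and Hnrnpm 1.06-fold higher (0.962 to 1.18). The median log2 fold change of the 5 was -0.16, against -0.07 for the 33 members with no match and -0.0030 over all tested genes. Over all 11 members with any match the median was -0.0098, with 5 above 0 and 6 below. The 6 members that held a 7mer-A1 were Hnrnpdl, Hnrnph1, Hnrnph3, Hnrnpr, Srsf1 and Srsf10, with log2 fold changes from -0.36 to 0.19 and no call. Srsf10, a splicing repressor under stress, was 1.03-fold higher (0.925 to 1.16).

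Base composition moved with the fold changes of all genes. Across tested genes, which do not replicate one another and share the same 4 libraries, the Spearman correlation of the log2 fold change was 0.25 with transcript GC content and 0.28 with transcript length (n = 11266). Among the 44 members the same correlations were weaker, 0.14 and 0.015. The members were of lower GC content than most genes, with a median of 45.2% against 49.4%, and the 8 called lower lay between 39.99% and 49.97%. When spline terms for GC content and length were fitted in each library, 7 members were called higher (background 10.9%) and 2 lower (background 7.42%). Calls held for 5 members with and without the terms: Sf3a2, Sf3b3 and Hnrnpa2b1 higher, and Hnrnpll and Sf3b1 lower. Their sizes moved, with log2 fold changes from 0.32 to 0.68 for Hnrnpa2b1, 1.53 to 1.22 for Sf3a2 and 0.46 to 0.39 for Sf3b3. Hnrnpll went from -0.56 to -0.46 and Sf3b1 from -0.19 to -0.16. The other 6 lower calls ended, among them Hnrnpk, whose log2 fold change went from -0.16 to -0.013, and Hnrnpc, from -0.20 to -0.018. Srsf7 turned to 0.077 and Hnrnph2 to 0.024. Hnrnpa1, Hnrnph3, Hnrnpdl and Srsf5 were called higher only in that fit. The medians became 0.10 for SR and Tra2 genes, -0.016 for hnRNPs and 0.17 for the core, beside 0.035 over all tested genes, so the direction of the SR median turned.

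**Figure D3:**
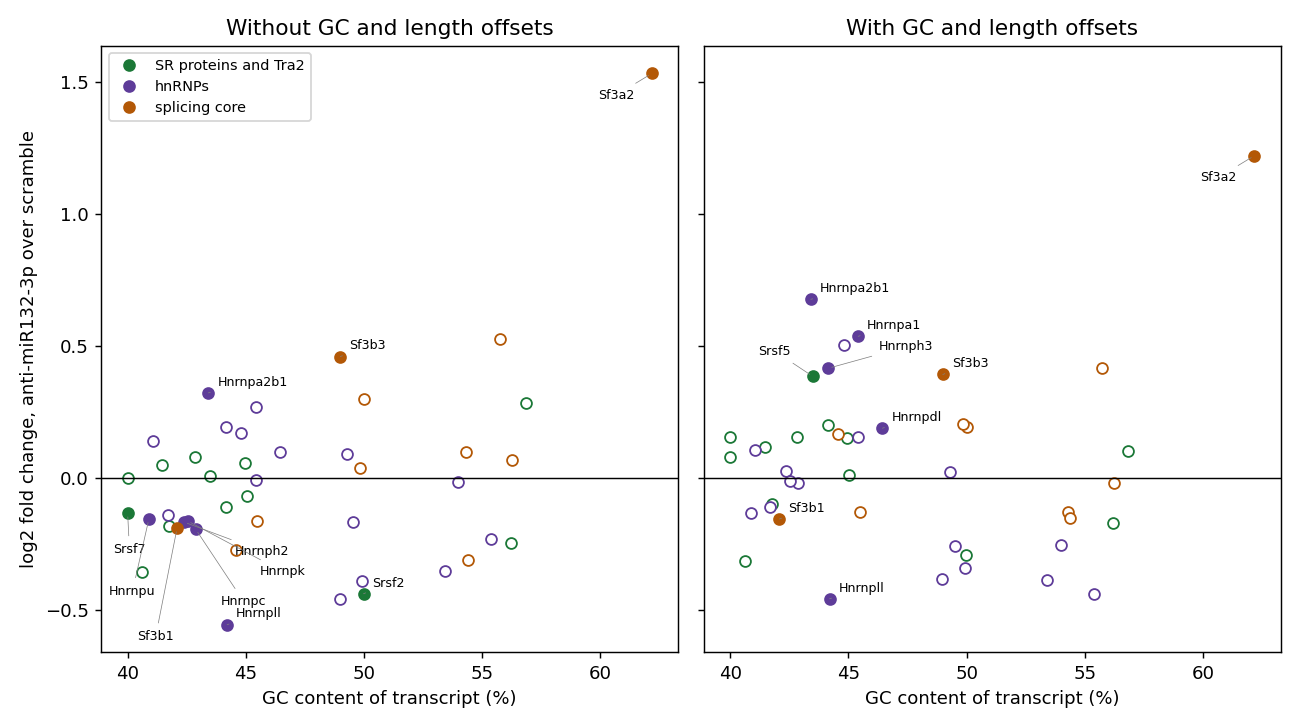
Log2 fold change of the 44 members against the GC content of the transcript in percent, without (left) and with (right) spline terms for GC content and length. Filled points were called by edgeR. The cluster of lower calls between 40% and 43% GC at left is absent at right except for Sf3b1, while Sf3a2, Sf3b3, Hnrnpa2b1 and Hnrnpll stay filled in both.

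Other genes of splicing were taken from 10 lists, with 131 genes beside the members, of which 129 were found by symbol and 127 tested. Of these, 23 were called higher (18.1%, background 13.5%) and 16 lower (12.6%, background 10.3%), and the median log2 fold change was -0.04. With the GC and length terms, 21 were higher (background 10.9%) and 16 lower (background 7.42%). The SR-related coactivators held 11 of these 39 calls. Shares of single lists below stand beside 13.5% higher and 10.3% lower. Counts of single lists with the GC and length terms stand beside 10.9% higher and 7.42% lower.

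In the U2 snRNP and branch site list, 2 of 14 were called higher (14.3%, background 13.5%) and 1 lower (7.14%, background 10.3%). Cherp, a U2 snRNP-associated protein, was at 21.3 against 62.7 CPM, 2.94-fold higher (2.26 to 3.86). Sf1, the branch point binding protein that U2AF recruits, was 1.49-fold higher (1.247 to 1.78), and Zrsr2, a U2AF1-related factor of the minor spliceosome, 1.32-fold lower (1.102 to 1.59). Among the U1 snRNP genes 1 of 3 was called, Snrnp70, 1.32-fold higher (1.17 to 1.4995).

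Of 15 tri-snRNP genes, 4 were called higher (26.7%) and 2 lower (13.3%), and 1 and 1 with the GC and length terms. Snrnp200, the helicase that unwinds U4 from U6, was 1.62-fold higher (1.37 to 1.93) and Sart3, which reassembles U4/U6, 1.53-fold higher (1.204 to 1.94). Txnl4a, a small U5 protein, was 1.39-fold lower (1.13 to 1.73). In the Prp19 and helicase list 3 of 17 were higher (17.6%) and 2 lower (11.8%). With the GC and length terms 1 was higher and 5 lower: all 3 higher calls ended, and Xab2, Ddx41 and Ddx39b were called lower. Cdc5l, a scaffold of the Prp19 complex, was at 151 against 100.2 CPM, 1.51-fold lower (1.32 to 1.73). The helicases Dhx16, with 16 counts against 38, and Dhx8, 1.41-fold higher (1.14 to 1.75), were both called. Among the genes named from these lists, Sf1 and Sart3 also lost their calls.

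Of 15 Sm and Lsm genes, edgeR called 2 lower (13.3%, background 10.3%) and 0 higher (background 13.5%). At an unadjusted p under 0.05 these were 5 and 0, with 1 and 0 by DESeq2 and 2 and 0 by limma-voom. Snrpd3, an Sm ring protein, was 1.28-fold lower (1.09 to 1.49). Snrpn, the neuronal Sm protein, was at 2048 against 1608 CPM, 1.27-fold lower (1.23 to 1.32). Its call ended with the GC and length terms.

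Of 9 tested genes for SR protein kinases and import, 2 were called lower (22.2%, background 10.3%). Srpk2, a cytoplasmic SR kinase abundant in brain, was at 664 against 536 CPM, 1.24-fold lower (1.17 to 1.32). Clk1, a nuclear kinase of SR proteins, was 1.19-fold lower (1.102 to 1.28), and its call ended with the GC and length terms. The SR-related coactivators split, with 5 of 19 higher (26.3%, background 13.5%) and 6 lower (31.6%, background 10.3%). Scaf4, which binds the tail of RNA polymerase II, was 2.16-fold higher (1.53 to 3.07), Thrap3 1.54-fold higher (1.35 to 1.75) and Srrm2, a nuclear speckle scaffold, 1.46-fold higher (1.29 to 1.66).

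Among 10 hnRNP proteins with other symbols, 3 were called higher (30%, background 13.5%). Ptbp1, the repressor of neuronal exons that neurons replace with Ptbp2, had 30 counts against 73 and was 2.55-fold higher (1.64 to 4.04). Its level stayed low, at 8.20 and 20.9 CPM. The leukocyte markers, all below the low-count filter, were also higher in the same libraries, apart from Aif1. In the Müller glia list Dkk3 and Apoe were higher, while Rlbp1, Glul, Slc1a3 and Aqp4 were lower. The part of such cells in the Ptbp1 difference was not tested. Raly, a relative of Hnrnpc, was 1.81-fold higher (1.46 to 2.25). Of 8 minor spliceosome genes 2 were called higher (25%, background 13.5%) and 0 lower (background 10.3%). The genes called were Rnpc3, 1.24-fold (1.08 to 1.43), and Pdcd7, with 12 counts against 27, the latter without a call under the GC and length terms. The median log2 fold change of the 8 was -0.16, with 2 above 0 and 6 below. At an unadjusted p under 0.05 edgeR had 2 higher and 4 lower. The exon junction complex and nonsense-mediated decay, which removes the decay-prone SR and hnRNP isoforms, had 17 genes. Of these, 3 were higher (17.6%, background 13.5%) and 1 lower (5.88%, background 10.3%). Smg5 was 2.13-fold higher (1.63 to 2.81) and Smg9 1.95-fold higher (1.43 to 2.68), while Upf3b was 1.49-fold lower (1.23 to 1.796).

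**Figure D4:**
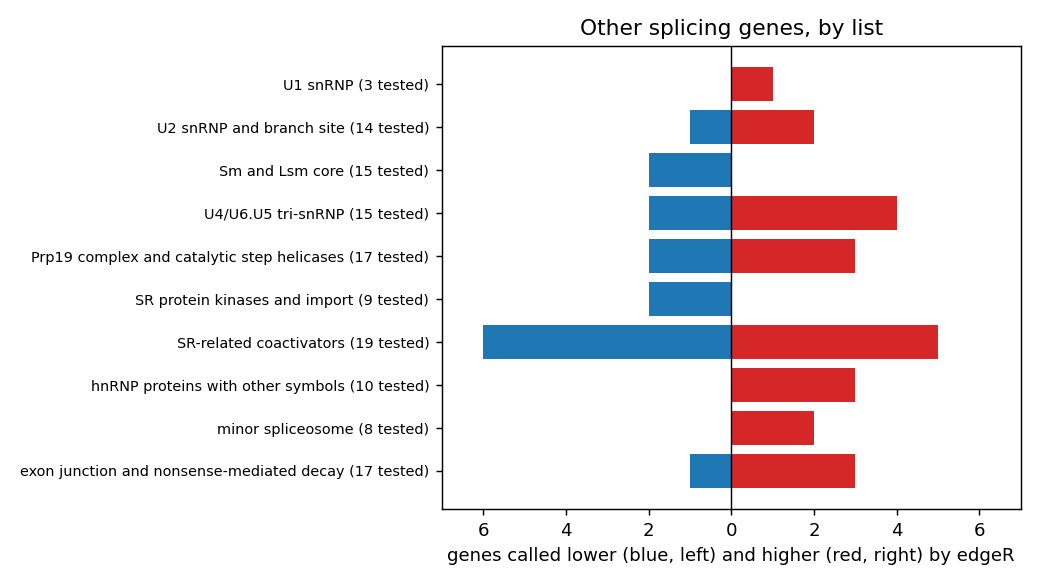
Number of genes called lower (left, blue) and higher (right, red) by edgeR in each of the 10 lists of other splicing genes, with the number tested in the label. The SR-related coactivators have calls on both sides, 5 higher and 6 lower, and the hnRNP proteins with other symbols have 3 higher. Over all tested genes, 13.5% were called higher and 10.3% lower.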

How the data were processed

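The authors deposited raw counts, in whole numbers, for each Ensembl gene. The submitters' processing notes name Trimmomatic 0.39, Cufflinks, Cuffnorm, Cuffdiff, HISAT2 2.2.1 and SAMtools and the build GRCm39. Which program counted reads, from which annotation and with which strand setting, is not given in the sources used here. Symbols, transcript length, GC content and 3' UTRs came from GENCODE M21 (GRCm38, not the build of the counts, so positions are left out). Names were found for 51486 identifiers.

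In R 4.3.3, genes passing filterByExpr (11427, with 98.6% of counts) were scaled by TMM and tested with edgeR 4.0.16 (glmQLFit, glmQLFTest). Alternatives used limma 3.58.1 and DESeq2 1.42.0, other scaling, no filter, left-out libraries, a replicate block, summed pairs and offsets for GC content and length (splines of 4 degrees of freedom, available for 98.7% of tested genes). Length per kilobase used 1 principal transcript per gene. In simulated counts with sampling noise alone over 11427 genes, edgeR found 18% of the genes altered by the size limit used here (25% higher or 20% lower). It found 42% of the genes altered 1.5-fold and 88% of those altered 4-fold (50 genes per fold). The altered genes were drawn from all tested genes and were far fewer than the 2721 called in the data. These shares are therefore not the detection rate of the members. A count of 3 in 1 library is 1.64 to 1.72 CPM.

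Members and lists were chosen with earlier results of these data known. Named were members called by edgeR or past the 25% or 20% size limit with an interval leaving out 1, the highest per kilobase of each class, members with a seed match, and up to 3 called genes per list with the largest change. Other members were given briefly to account for all 44. Some items that this rule names are not reported here.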

Additional observations from a re-analysis of the deposited data

How the results depend on the processing

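The counts of members called by edgeR were 3 higher and 8 lower. They were 0 and 0 with no low-count filter (7 and 9 at an unadjusted p under 0.05), and 0 to 0 higher and 0 to 0 lower with 1 library left out, where the adjusted p of the 11 called members ran from 0.19 to 0.28 a fit that assumes the same spread for the single library left in its group. DESeq2 called 3 and 2, library totals as the scale gave 3 and 4, and the GC and length offsets gave 7 and 2. With each pair summed and an assumed coefficient of variation of 0.1 there were 1 (Sf3a2) and 0 (2 and 1 at an unadjusted p under 0.05), and with 0.2 there were 0 and 0 (1 and 0 unadjusted). RLE factors and limma-voom gave 3 and 8. The replicate block gave 3 and 10, within 1.5 times, and Srsf1 was called in it (adjusted p = 0.037). The replicate numbers did not pair the samples (correlation of same-numbered deviations 0.013 across genes).

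Members higher by 25% or lower by 20% or more numbered 3 and 6, with 1 and 0 at 1.5-fold, 8 and 5 with the offsets and 5 and 6 with library totals. With 1 library left out they ran from 3 to 7 higher and from 4 to 8 lower. Requiring the interval to leave out 1 gave 3 and 3. Medians with 1 library left out ran from -0.10 to -0.017 for SR and Tra2 genes, -0.17 to -0.031 for hnRNPs and 0.058 to 0.13 for the core, and with the offsets were 0.10, -0.016 and 0.17. The SR and Tra2 median was -0.042 with library totals, which moved the median of all tested genes to 0.023. With the offsets Srsf7 turned to 0.077 and Hnrnph2 to 0.024. Beyond what the settings change by construction, the cause was not tested. Members called at smaller differences than 25% or 20% had at least 901 counts in each group, and Hnrnpab, Sf3a2, U2af2, Srsf4 and Hnrnpf had intervals wider than 2 times.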
